A study of Homo sapiens with 15 samples.

Results

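The RNA of U87MG cells transduced with lentivirus labelled for ID1 was compared with that of cells transduced with lentivirus labelled for ID2. U87MG is an established human glioblastoma line. The 2 groups, of 3 libraries each, made up 6 of the 15 libraries in the series, and they were chosen by label alone. The remaining 9 libraries carried the labels GFP (the control vector), ID3 and ID4, again with 3 libraries per label. All cells were of the U87MG line, grown in serum-containing medium, and were treated with virus for 24 h. The labels call ID1 and ID2 overexpression, name no promoter for either vector and do not say whether the 3 libraries of a label came from separate transductions, so p-values measure the spread between these libraries. The libraries were made with the QuantSeq kit, which reads the 3′ ends of polyadenylated RNA. Genes with a mean of 10 or more counts over the 6 libraries were tested, which left 12833 of 25737 table entries.

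ID proteins are helix-loop-helix proteins without a DNA-binding region. They pair with E proteins, such as those encoded by TCF3, TCF4 and TCF12, and keep them and their basic helix-loop-helix partners from binding E-boxes, short DNA motifs of the form CANNTG. ID genes are transcribed in response to BMP and other signals, and in glioblastoma they are known for their link to stem-like cells. ID1 and ID2 are alike in their helix-loop-helix region and differ more in the rest of the protein.

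Total counts were 13379741 to 15148979 in the ID1 libraries and 13721726 to 14454067 in the ID2 libraries. A floor of 3 counts per library corresponded to 0.197 to 0.223 CPM (counts scaled to library size with edgeR's TMM factors) in these 6 libraries, and it covers counting error only. The libraries matched the markers of the line. VIM, CD44, NES, FN1, TGFBI, CAV1 and MET were expressed in all 6 libraries, while CDKN2A and CDKN2B, deleted in this line, had 0 counts in all 6 and MTAP had 0 to 3. Summed over 5 leukocyte markers, levels were 0.0736 to 0.329 CPM in ID1 and 0.424 to 0.811 CPM in ID2, with CD3E and ITGAM at 0. The 5 endothelial markers summed to 0.147 to 0.446 and 0.419 to 0.59 CPM, with CDH5 and CLDN5 at 0. The 5 epithelial markers summed to 0.46 to 1.26 and 0.566 to 1.11 CPM, with KRT5 and KRT14 at 0. The 3 oligodendrocyte markers summed to 337 to 355 and 291 to 346 CPM, nearly all of it CNP, with MAG and MOBP at 0 or 1 count. The 6 neuronal markers summed to 32.9 to 38.1 CPM in ID1 and 45.6 to 54.9 CPM in ID2, from GAD1, SNAP25 and SYT1, while RBFOX3, GRIN1 and SLC17A7 had 0 or 1 count. One library stood apart. ID2 replicate 3 correlated with the other ID2 libraries at 0.9874 and 0.9877 (Pearson's r across genes, which are not independent replicates), against 0.9932 between those 2. Results are therefore given with and without it.

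The targeted genes came first, since they check the labels. ID1 (chromosome 20, 30193086 to 30194318 on GRCh37) stood at 246, 247 and 250.4 CPM in the libraries labelled ID1 and at 333, 343 and 285 CPM in those labelled ID2. ID1 mRNA was therefore lower, not higher, under its own label, by 0.37 on the log2 scale (log2 fold change, ID1 over ID2, -0.37, standard error 0.06, adjusted p = 0.000225, quasi-likelihood test of edgeR, Benjamini-Hochberg adjusted over all tested genes). GFP libraries held 339 to 355 CPM. ID2 (chromosome 2, 8818975 to 8824591) stood at 36.6, 31.5 and 34.2 CPM in the ID1 libraries and at 44.2, 45.2 and 47.2 CPM in the ID2 libraries (log2 fold change -0.42, standard error 0.07, adjusted p = 0.00017). Both groups lay below GFP, at 84.2 to 88.1 CPM, so that ID2 mRNA was not raised over GFP under its own label. ID3 (chromosome 1, 23884417 to 23885992) showed the largest difference of the family, with 176, 188 and 184 CPM against 271, 322 and 281 CPM (log2 fold change -0.68, standard error 0.07, adjusted p = 3.41e-07). For each of the 3 genes the libraries of the 2 groups did not overlap, and a two-sided exact permutation test gave p = 0.1, the smallest that 3 against 3 libraries allow. ID4 lay near the floor, with 13 counts in total in ID1 and 19 in ID2, whereas libraries labelled ID4 held 212, 223 and 236 CPM. The sources used here do not say whether the vectors' ID1 and ID2 transcripts end in a 3′ sequence that the gene counts would hold, and groups are called by their labels throughout.

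**Figure D1:**
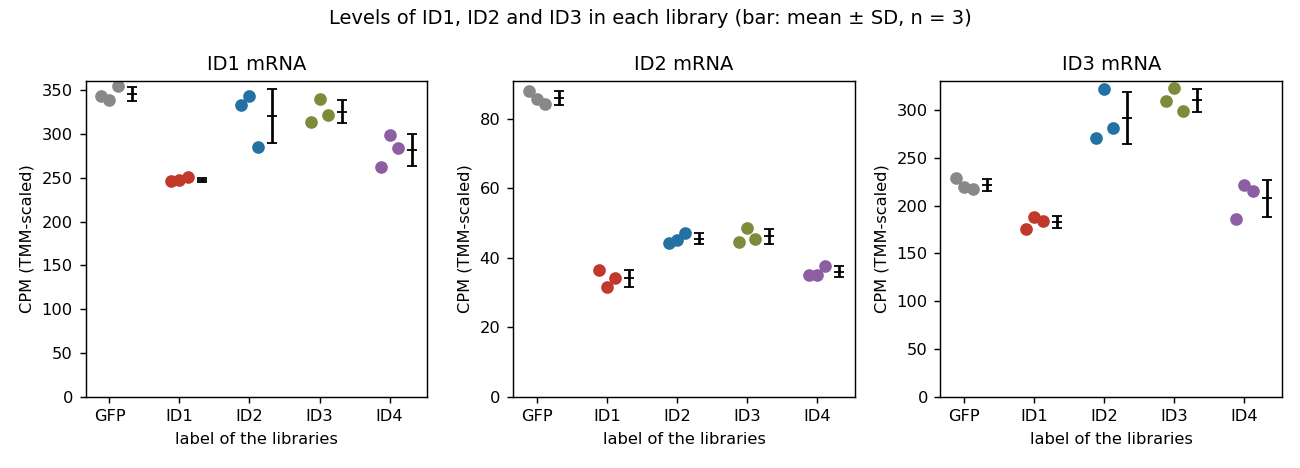
CPM (TMM-scaled) of ID1, ID2 and ID3 mRNA in each of the 15 libraries, by the label of the library; points are libraries and the black bar is the mean ± SD (n = 3). All 3 genes were lower in the libraries labelled ID1 than in those labelled ID2, and ID2 mRNA was higher in every GFP library (84.2 to 88.1 CPM) than in any other.

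Of the 12833 tested genes, 2419 (18.8%) passed an adjusted p of 0.05, 1167 (9.09%) of them higher in ID1 and 1252 (9.76%) lower. Most of the differences were small. The median fold was 1.27 among genes higher in ID1 and 1.28 among genes lower in ID1, and 172 genes (1.34%) differed over 2-fold, 98 higher and 74 lower. Of those 172, 109 had a mean under 50 counts. In 4271 genes (33.3%) the libraries of the 2 groups did not overlap, which took in 2344 of the 2419. With counts scaled by their total alone, 59.0% of the called genes were higher in ID1 (1475 higher, 1025 lower) against 48.2% with TMM, and the median of all tested genes moved from 0.004 to 0.04. Without ID2 replicate 3, 2195 genes (17.1%) passed, 1061 higher and 1134 lower, and 1836 genes passed in both fits, all in the same direction.

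**Figure D2:**
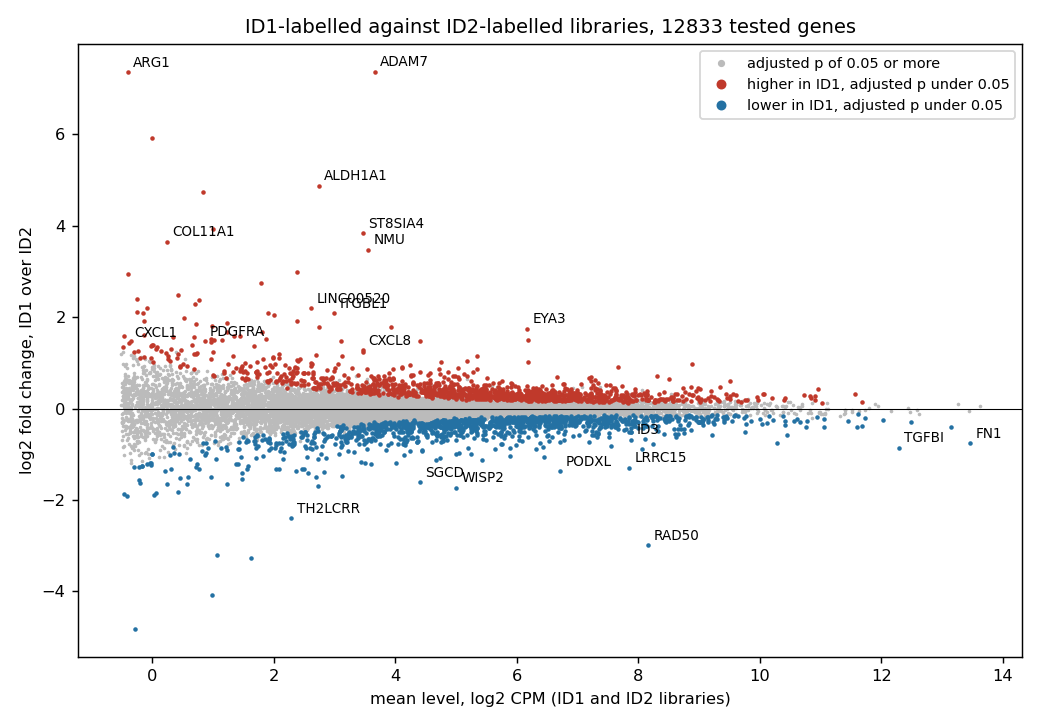
Log2 fold change (ID1 over ID2) against the mean level (log2 CPM over both groups) of the 12833 tested genes, coloured where the adjusted p was under 0.05. Differences over 2-fold were mostly among genes of low level, with RAD50 far below the rest at high level.

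Among genes of at least 50 counts on average whose libraries did not overlap, the largest rises in ID1 were in genes for a protease-like surface protein, a retinal-oxidizing enzyme, a sialyltransferase and a neuropeptide. ADAM7 (chromosome 8, 24298443 to 24384483), a member of the ADAM family known from the epididymis, stood at 20.3, 27.8 and 27.4 CPM in ID1 and at 0.295, 0 and 0.141 CPM in ID2. That was 1055 counts against 6, a ratio of 175 (exact binomial 95% interval 80.1 to 478, counting error only, adjusted p = 1.67e-12). In counts with 1 library left out, added after seeing the data, the ratio was 356 without ID2 replicate 1 and 115 without ID2 replicate 2. ADAM7 had no count in any GFP library and 28.8 to 29.5 CPM in the ID4 libraries. ALDH1A1 (chromosome 9, 75515587 to 75695358), an aldehyde dehydrogenase that makes retinoic acid and is used as a marker of stem-like tumor cells, stood at 12.8, 13.6 and 12.4 CPM in ID1 against 0.664, 0.14 and 0.495 CPM in ID2 (log2 fold change 4.88, standard error 0.29, adjusted p = 7.26e-11). Its mean in the GFP, ID3 and ID4 groups was 0.07, 0.118 and 0.887 CPM, so the ID1 libraries stood above the other 12. ST8SIA4 (chromosome 5, 100142637 to 100238986), which builds polysialic acid on NCAM, was at 20.2, 24.3 and 17.2 CPM in ID1 and at 1.62, 1.82 and 0.848 CPM in ID2 (log2 fold change 3.84, standard error 0.28, adjusted p = 4.29e-09), and again no other group's mean passed 1.45 CPM. NMU (chromosome 4, 56461396 to 56502865), the neuropeptide neuromedin U, was at 21.4, 19.8 and 23.7 CPM in ID1 and at 2.43, 2.09 and 1.27 CPM in ID2 (log2 fold change 3.48, standard error 0.17, adjusted p = 4.8e-12). GFP libraries lay between the 2 groups for NMU, at 5.51 to 6.44 CPM.

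Some of the other leading genes encode secreted and surface proteins. CCL2 (chromosome 17, 32582293 to 32584227), a chemokine that draws monocytes, stood at 4.93, 7.52 and 5.82 CPM in ID1 against 1.47, 1.26 and 1.48 CPM in ID2, with GFP between them at 2.87 to 3.84 CPM (log2 fold change 2.10, standard error 0.24, adjusted p = 2.84e-06). ITGBL1 (chromosome 13), a secreted integrin beta-like protein, was at 11.8, 13.5 and 13.3 CPM in ID1 and at 3.17, 2.93 and 2.9 CPM in ID2 (log2 fold change 2.09, adjusted p = 3.64e-09). Here the ID1 libraries were at the level of GFP (mean 12.2 CPM) and the ID2 libraries lay below every GFP library. SULF1 (chromosome 8), an extracellular heparan sulfate sulfatase, averaged 6.48 ± 0.387 CPM (SD, n = 3) in ID1 and 1.57 ± 0.667 CPM (SD, n = 3) in ID2 (log2 fold change 2.04, adjusted p = 6.15e-06). IL13RA2 (chromosome X), the decoy receptor for IL-13 and a known glioblastoma antigen, averaged 8.25 ± 1.88 against 2.19 ± 0.382 CPM (SD, n = 3, log2 fold change 1.91, adjusted p = 1.26e-05). MDM1, a centriole protein, averaged 23.6 ± 0.946 against 6.85 ± 2.2 CPM, and SP140, a bromodomain protein of lymphoid nuclear bodies, 10.4 ± 0.578 against 3.02 ± 1.57 CPM (SD, n = 3). MDM1 was at 5.7 CPM in GFP, near the ID2 level, and SP140 at 11.7 CPM, near the ID1 level. Without ID2 replicate 3, their log2 fold changes went from 1.79 to 1.55 and from 1.78 to 2.29. The long noncoding RNA LINC00520 (chromosome 14) was at 11, 9.75 and 9.57 CPM against 2.06, 2.23 and 2.26 CPM (log2 fold change 2.20, adjusted p = 9.51e-09), and the uncharacterized LOC283352 averaged 9.22 ± 0.836 against 1.16 ± 0.258 CPM (SD, n = 3, log2 fold change 2.98).

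RAD50 led the genes lower in ID1. RAD50 (chromosome 5, 131891711 to 131982041, plus strand), a subunit of the MRE11 complex that senses DNA double-strand breaks, stood at 67.5, 59.7 and 64.7 CPM in ID1 and at 504, 479.8 and 539 CPM in ID2. The difference was 7.93-fold (log2 fold change -2.99, standard error 0.08, adjusted p = 3.41e-17). GFP, ID3 and ID4 libraries averaged 63.1, 54.2 and 63 CPM, so that the level in the ID2 libraries stood above that in the other 12. TH2LCRR, a long noncoding RNA on the minus strand, overlaps RAD50 from 131966281 to 131982041, and it moved the same way, with 1.12, 1.49 and 2.06 CPM in ID1 and 7.74, 9.29 and 7.56 CPM in ID2 (log2 fold change -2.40, adjusted p = 1.93e-07). Whether the counting used strand is not given in the sources used here, so reads of these 2 genes cannot be told apart. Of the 15 tested genes within 500000 bases of RAD50, 5 were lower in ID1, 1 was higher (IRF1) and the median log2 fold change was -0.06. Over all tested genes 9.76% were lower and 9.09% higher. The 5 included TH2LCRR, and P4HA2 with its antisense gene P4HA2-AS1, so they are not 5 independent neighbours.

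A second pair of neighbours lies on chromosome 20. WISP2, now CCN5 (43343485 to 43357150), a secreted matricellular protein, stood at 15.1, 15.3 and 13.8 CPM in ID1 and at 47.6, 45.1 and 54.2 CPM in ID2, with GFP at 4.26 to 5.17 CPM (log2 fold change -1.73, standard error 0.09, adjusted p = 1.94e-11). ADA (43213537 to 43280893), adenosine deaminase, was at 3.35, 2.68 and 4.12 CPM against 8.78, 9.5 and 10.3 CPM (log2 fold change -1.49, adjusted p = 6.62e-06). PKIG, an inhibitor of protein kinase A that lies close to ADA, was also lower in ID1 (log2 fold change -0.64, chosen after its value was seen). In both genes the ID1 libraries lay between GFP and ID2.

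Several surface proteins were lower in ID1. PODXL (chromosome 7, 131185021 to 131242976), a sialomucin of podocytes and of invasive tumor cells, stood at 58.2, 57 and 59.9 CPM in ID1 and at 136, 168 and 149.6 CPM in ID2 (log2 fold change -1.37, standard error 0.08, adjusted p = 3.5e-11). SGCD (chromosome 5, 155297354 to 156194799), delta-sarcoglycan, was at 10.2, 11.9 and 9.2 CPM against 34.1, 35.4 and 26 CPM (log2 fold change -1.61, standard error 0.13, adjusted p = 9.51e-09). ITGB2 (chromosome 21), the beta chain of leukocyte integrins, was at 4.53, 4.54 and 4.71 CPM against 13.8, 13.1 and 11.6 CPM (log2 fold change -1.48, adjusted p = 6.77e-07). The leukocyte markers given above were near 0 in both groups, with a higher sum in ID2, and their part in ITGB2 was not tested. The rule that chose these 3 genes asked for no overlap between ID1 and ID2 libraries. In all 3 genes both groups lay above all GFP libraries. LPPR4, now PLPPR4 (chromosome 1, log2 fold change -1.70), a neuronal phospholipid phosphatase-related protein, GUCY1A2 (chromosome 11, -1.38), a subunit of the nitric oxide receptor, and KCNK2 (chromosome 1, -1.37), a background potassium channel, were lower in ID1, at group means of 2.88 to 3.93 CPM there. NFE2, an erythroid transcription factor (log2 fold change -1.41), and CSTA, the cysteine protease inhibitor cystatin A (-1.33), completed the 12 leading genes. The neuronal marker SNAP25, chosen after its value was seen, was also lower in ID1, at 15 against 28.2 CPM (log2 fold change -0.91, adjusted p = 0.000717). The neuronal markers SYT1 (log2 fold change -0.53, adjusted p = 0.127) and GAD1 (-0.14, adjusted p = 0.34) did not pass.

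**Figure D3:**
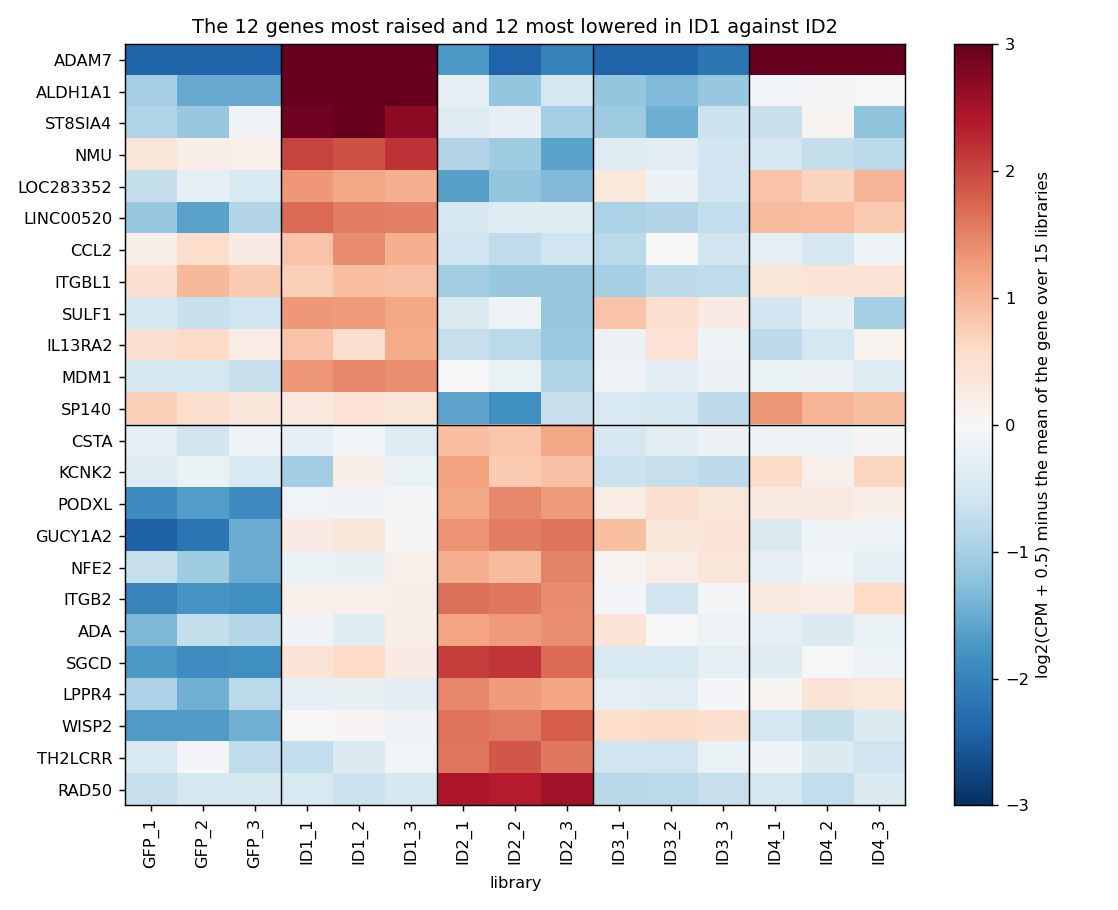
Levels of the 12 genes most raised and the 12 most lowered in ID1 against ID2, in all 15 libraries, as log2(CPM + 0.5) minus the mean of each gene (red, above the mean; blue, below it). ALDH1A1, ST8SIA4 and NMU stood out in the ID1 libraries and RAD50 in the ID2 libraries, whereas ADAM7 was also high in the ID4 libraries.

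A few genes were at or near 0 in 1 group, and their ratios with 1 library left out were likewise added after seeing the data. The rule that picked them held the low group to at most 3 counts per library. Their intervals pool the libraries of a group and cover counting error only, not the spread between libraries. UGT2B7, a glucuronidating enzyme of the liver on chromosome 4, had 144 counts in ID1 and 5 in ID2, a ratio of 28.7 (exact binomial 95% interval 12 to 89.6), and 47.5 without ID2 replicate 3. CDHR5, a microvillar cadherin, had 85 counts in ID1 (47, 22 and 16 by library) against 1 in ID2 (ratio 84.6, interval 14.8 to 3379). The ratio was 56.1 without ID2 replicate 3, and without ID2 replicate 2, which held the 1 count, CDHR5 was at least 9.08-fold higher against the floor. ARG1, arginase of the urea cycle, had 64 counts in ID1 and 0 in ID2, at least 7.05-fold higher against the floor of 3 counts per library. In the other direction, PABPC4L, a poly(A)-binding protein-like gene, had 67 counts in ID2 and 2 in ID1 (ratio 33.7, interval 8.96 to 284). Both ID1 counts were in replicate 2, without which the gene was at least 7.6-fold higher in ID2 against the floor, and the ratio was 21.5 without ID1 replicate 1. Each of these 4 genes was at most 0.223 CPM in every GFP, ID3 and ID4 library.

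The regions upstream of the leading genes are shown because ID proteins act on factors that bind E-boxes. RefSeq sequences (GRCh38.p14, a different build from the count table) held 1 promoter entry for 7079 of the 12833 tested genes and for 11 of the 24 leading genes. Below are the 250 bases before the transcription start, 5′ to 3′ on the strand of the gene, with each CANNTG in capitals. They are those of ALDH1A1 (chr9:72953054-72953303, minus strand), NMU (chr4:55636794-55637043, minus), RAD50 (chr5:132556727-132556976, plus) and SGCD (chr5:156326914-156327163, plus), 2 genes from each direction.
ALDH1A1: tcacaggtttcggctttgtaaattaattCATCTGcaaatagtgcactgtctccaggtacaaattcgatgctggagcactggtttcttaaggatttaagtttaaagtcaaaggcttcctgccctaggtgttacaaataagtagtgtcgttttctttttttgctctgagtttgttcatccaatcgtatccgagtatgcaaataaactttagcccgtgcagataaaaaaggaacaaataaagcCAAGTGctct
NMU: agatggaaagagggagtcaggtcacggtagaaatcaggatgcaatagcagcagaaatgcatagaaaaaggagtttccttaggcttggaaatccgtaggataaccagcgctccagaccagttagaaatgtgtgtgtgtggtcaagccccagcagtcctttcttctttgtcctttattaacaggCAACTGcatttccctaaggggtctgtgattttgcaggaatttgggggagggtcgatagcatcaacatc
RAD50: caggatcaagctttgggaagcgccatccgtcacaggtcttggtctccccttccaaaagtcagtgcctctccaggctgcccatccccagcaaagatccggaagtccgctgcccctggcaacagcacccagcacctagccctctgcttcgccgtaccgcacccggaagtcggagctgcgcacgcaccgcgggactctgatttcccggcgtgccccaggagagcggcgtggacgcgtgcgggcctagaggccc
SGCD: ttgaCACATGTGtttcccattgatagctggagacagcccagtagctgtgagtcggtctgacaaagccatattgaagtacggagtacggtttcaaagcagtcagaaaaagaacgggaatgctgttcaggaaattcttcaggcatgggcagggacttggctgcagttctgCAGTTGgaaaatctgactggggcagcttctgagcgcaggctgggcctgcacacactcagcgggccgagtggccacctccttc
ALDH1A1 held 2 E-boxes, NMU 1, RAD50 0 and SGCD 3, of which 2 overlap. CANNTG reads the same on both strands. It was present in 53.3% of the 644 promoters of genes higher in ID1, in 51.7% of the 677 of genes lower in ID1 and in 52.4% of all 7079. CAGCTG was present in 12.6%, 13.3% and 12.5% of these promoters, and CACCTG or its reverse complement CAGGTG in 14.1%, 14.9% and 14.4%. Among the 11 leading promoters, 8 held CANNTG, 0 held CAGCTG and 1 held CACCTG or CAGGTG.

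The 5 most abundant genes that passed in each direction were FN1, TGFBI, S100A6, CD63 and VIM on the ID2 side and MT2A, RPS12, RPL7A, TUBB6 and RPL8 on the ID1 side. FN1 (fibronectin, chromosome 2) averaged 8436 ± 630.4 CPM in ID1 and 14190 ± 1025 CPM in ID2 (SD, n = 3, log2 fold change -0.75, adjusted p = 2.91e-08). TGFBI, a matrix protein induced by TGF-beta, averaged 3569.8 ± 124 against 6417 ± 268 CPM (SD, n = 3, log2 fold change -0.85, adjusted p = 3.32e-11). S100A6 (log2 fold change -0.40), the tetraspanin CD63 (-0.29) and vimentin (VIM, -0.24) were lower in ID1 as well. On the other side stood the metallothionein MT2A, at 2281 ± 16.6 against 1677 ± 90.3 CPM (SD, n = 3, log2 fold change 0.44, adjusted p = 5.4e-07), and RPS12 at 3372 ± 62.6 against 2706 ± 104 CPM (SD, n = 3, log2 fold change 0.32, adjusted p = 3.72e-05). RPL7A (0.20), the tubulin TUBB6 (0.15) and RPL8 (0.13) were higher too. The calls on TUBB6 and RPL8 were lost without ID1 replicate 1, ID2 replicate 1 or ID2 replicate 2, and that on RPL8 also without ID1 replicate 2 or 3 (highest adjusted p = 0.0935 and 0.156).

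Gene lists drawn up for glioma cells were read by their counts and their median log2 fold change, ID1 over ID2, beside a median of 0.004 and 18.8% called over all tested genes. Counts in brackets leave out ID2 replicate 3. In the ID family, 3 of 3 tested members were lower in ID1 (3). Of 14 tested E proteins and basic helix-loop-helix factors, 0 were higher and 4 lower (0 and 4), with a median of -0.12. HEY1, a repressor downstream of Notch, was at 4.34 ± 0.4 against 6.69 ± 0.424 CPM (SD, n = 3, log2 fold change -0.62), the E protein gene TCF4 had a log2 fold change of -0.35 and the clock repressor BHLHE41 one of -0.35. TWIST1 (-0.29, adjusted p = 0.0309) lost its call without ID1 replicate 1 or 2 or ID2 replicate 1 or 2 (adjusted p up to 0.156).

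Genes of the BMP, TGF-beta, Notch and Wnt lists that passed went both ways. Of 19 BMP and SMAD genes, 1 was higher and 2 were lower in ID1 (1 and 2, median -0.05). SMAD6, an inhibitor of BMP signalling and itself a BMP target, was at 17.4 ± 1.02 against 24.5 ± 0.682 CPM (SD, n = 3, log2 fold change -0.49, adjusted p = 0.000224). The receptor genes BMPR1B (0.94) and BMPR2 (-0.29) parted, and each lost its call without 1 of 2 libraries, ID1 replicate 1 or ID2 replicate 1 for BMPR1B (adjusted p up to 0.15) and ID1 replicate 3 or ID2 replicate 2 for BMPR2 (up to 0.0862). Of 17 TGF-beta genes, 2 were higher and 3 lower (3 and 4, median -0.03). INHBA, the activin A subunit, was at 5.38 ± 0.668 against 2.73 ± 0.275 CPM (SD, n = 3, log2 fold change 0.98, adjusted p = 0.0013), the signal transducer SMAD3 was higher (0.33) and TGFBI lower, as given above. In the IL6, JAK and STAT3 list, 3 of 18 genes were higher and 0 lower (2 and 0, median 0.08). SOCS3, the feedback inhibitor of that pathway, was at 41, 57.5 and 58.7 CPM in ID1 and at 36.8, 37 and 12.7 CPM in ID2, the lowest value being replicate 3. Its log2 fold change of 0.86 (adjusted p = 0.028) was not called without ID2 replicate 3 (0.0726), ID1 replicate 2 or ID1 replicate 3 (up to 0.106). IL6R had a log2 fold change of 0.32 (adjusted p = 0.00351). Of 8 Notch genes, 2 were higher and 2 lower (1 and 2, median -0.13), with the ligand JAG1 (-0.53) and the glycosyltransferase LFNG (-0.58) lower and the DNA-binding partner RBPJ (0.28, on chromosome 4) higher. Of 20 Wnt genes, 4 were higher and 2 lower (2 and 2, median -0.03). The receptor FZD3 was at 5.42 ± 0.56 against 2.5 ± 0.344 CPM and the secreted inhibitor DKK1 at 5.42 ± 0.462 against 2.53 ± 0.647 CPM (SD, n = 3, log2 fold changes 1.12 and 1.10), while the ligand WNT5B was lower (-0.52).

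Extracellular matrix genes that passed were mostly lower in ID1. Of 22 matrix glycoproteins and proteoglycans, 11 were lower and 2 higher (10 and 2), with a median of -0.24, against 9.76% lower over all tested genes. Besides fibronectin, the crosslinking enzyme LOXL1 was at 927 ± 24.4 against 1563 ± 93 CPM (SD, n = 3, log2 fold change -0.75, adjusted p = 3.45e-09), the fibrillin FBN1 at 145 ± 17.2 against 221 ± 16.2 CPM (-0.61) and the heparan sulfate proteoglycan SDC2 at 30.8 ± 1.92 against 48 ± 2.69 CPM (-0.64). Of 26 collagens and laminins, 11 were lower and 4 higher (11 and 3, median -0.15). The laminin LAMA4 was at 56.9 ± 5 against 118 ± 14.2 CPM (SD, n = 3, log2 fold change -1.05, adjusted p = 6.11e-09) and the fibrillar collagen COL5A2 at 126 ± 6.31 against 192 ± 21.2 CPM (-0.61). LAMA1 (0.89) and COL11A1 went the other way, the latter from 0.168 ± 0.115 CPM in ID2 to 2.2 ± 0.397 CPM in ID1 (SD, n = 3, adjusted p = 6.1e-06). FN1, VIM, CDH2, PRRX1 and TWIST1 were the 5 of 11 EMT genes lower in ID1 (6), with 0 higher (0) and a median of -0.24. The homeobox factor PRRX1 had a log2 fold change of -0.63 and N-cadherin, CDH2, one of -0.29.

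Adhesion genes that passed went both ways, and actin genes that passed were mostly lower in ID1. Of 20 integrins, cadherins and CADM genes, 4 were higher and 6 lower (4 and 6, median -0.05). ITGA6, the laminin receptor chain used as a marker of glioma stem cells, was at 12.7 ± 1.9 against 4.59 ± 0.0901 CPM (SD, n = 3, log2 fold change 1.47, adjusted p = 1.11e-07), and CADM1, an immunoglobulin-type adhesion molecule, at 4.61 ± 0.657 against 1.79 ± 0.231 CPM (1.37). The collagen receptor chain ITGA1 was lower (-0.60). Of 29 actin and SRF target genes, 1 was higher and 9 lower (1 and 9, median -0.05). Caldesmon, CALD1, was at 709 ± 28 against 1019 ± 44.8 CPM (SD, n = 3, log2 fold change -0.52), and calponin CNN2 (-0.38) and vinculin VCL (-0.30) were lower too. SRF itself, the factor that drives this list, was the 1 gene higher in ID1 (0.40, adjusted p = 0.00205). Of 19 YAP and TAZ targets, 4 were higher and 2 lower (3 and 2, median 0.09), with CYR61 at 542 ± 34.1 against 391 ± 76 CPM (SD, n = 3, log2 fold change 0.47). Among 20 metalloproteinases and their inhibitors, 1 was higher and 3 lower (1 and 5, median -0.05), with MMP2 (-0.25) and its inhibitor TIMP2 (-0.30) both lower and the proteoglycan-cleaving ADAMTS1 higher (0.63). Of 13 plasminogen activators and serpins, 4 were higher and 1 lower (4 and 1, median 0.15). SERPINB2, an inhibitor of urokinase, was at 8.95 ± 1.7 against 3.96 ± 0.689 CPM (SD, n = 3, log2 fold change 1.18, adjusted p = 3.93e-05), and the Kunitz inhibitor TFPI2 was higher as well (0.71).

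Genes of the IL1, chemokine and NF-kB list that passed were higher in ID1. Of 21 genes for IL1, chemokines and NF-kB feedback, 9 were higher and 0 lower (7 and 0), with a median of 0.30, against 9.09% higher over all tested genes. CXCL8, the neutrophil chemokine, was at 15.7 ± 2.16 against 6.45 ± 3.32 CPM (SD, n = 3, log2 fold change 1.28, adjusted p = 0.000508), and TNFAIP2, a TNF-induced gene, at 48.9 ± 1.38 against 23.5 ± 2.63 CPM (1.05, adjusted p = 3.22e-09). CXCL1 was near the floor, at 1.12 ± 0.259 against 0.408 ± 0.162 CPM (SD, n = 3), and its call (adjusted p = 0.0266) was lost without ID1 replicate 2 or 3 or ID2 replicate 2 or 3 (up to 0.11). CXCL1 and CXCL8 lie on chromosome 4, whose tested genes had a median log2 fold change of 0.18. CXCL1 is near-identical to its paralogs, so its counts are uncertain. Of 27 interferon-stimulated genes, 3 were higher and 2 lower (4 and 2, median -0.04). OAS3, which makes the activator of RNase L, was at 10.4 ± 1.1 against 5.67 ± 0.604 CPM (SD, n = 3, log2 fold change 0.88) and IRF1 was higher (0.50), while STAT2 was lower (-0.33). Of 10 MHC class I and antigen processing genes, 0 were higher and 2 lower (0 and 3, median -0.09), the peptidase ERAP2 (-0.51) and the chaperone CALR (-0.35).

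Replication and mitosis genes that passed were higher in ID1. Of 36 replication genes, 8 were higher and 0 lower (7 and 0, median 0.11), and of 34 mitosis genes, 9 were higher and 0 lower (7 and 1, median 0.11). MAD2L1, a mitosis gene that passed, lies on chromosome 4, whose tested genes had a median log2 fold change of 0.18. Its call was lost without ID1 replicate 2 or 3 or ID2 replicate 3 (adjusted p up to 0.0913). The replication gene GINS4 lost its call without ID1 replicate 3 (adjusted p = 0.101). What part chromosome position had in these counts was not tested. GINS2, of the replicative helicase, was at 29.9 ± 1.77 against 21.1 ± 1.72 CPM (SD, n = 3, log2 fold change 0.50), the flap endonuclease FEN1 at 279 ± 11.4 against 216 ± 8.38 CPM (0.37), and the checkpoint kinase BUB1B at 26.9 ± 0.624 against 19.4 ± 0.734 CPM (0.47). Among 10 CDK inhibitors and D cyclins and their partners, 2 were higher and 1 lower (2 and 0, median 0.04). Cyclin D1, CCND1, was at 488 ± 13.2 against 380.3 ± 9.08 CPM (SD, n = 3, log2 fold change 0.36, adjusted p = 3.72e-05) and CDK6 was higher (0.38). Of 21 p53 targets, 5 were higher and 2 lower (4 and 0, median 0.01), with the exonuclease AEN furthest (0.54, adjusted p = 5.19e-07).

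Among 17 glioma stemness and glial differentiation genes, 5 were higher and 4 lower (3 and 4), with a median of 0.31. SOX9, a factor of glial progenitors, was at 6.37 ± 0.0648 against 3.6 ± 0.834 CPM (SD, n = 3, log2 fold change 0.82, adjusted p = 0.000873), and ITGA6 was higher, as given above. CHI3L1, a secreted glycoprotein typical of mesenchymal glioblastoma, was lower, at 27 ± 0.853 against 58.8 ± 2.35 CPM (log2 fold change -1.12, adjusted p = 3.28e-09). NES, which the paper uses as a marker of glioma stem cells, was lower in ID1 too. It averaged 18.2 against 24.6 CPM (log2 fold change -0.43, adjusted p = 0.00768) and was chosen after its value was seen. KLF4 (1.22, adjusted p = 0.0484) and MYC (0.52, adjusted p = 0.0366) lost their calls without ID1 replicate 2 or 3 or ID2 replicate 3, KLF4 also without ID2 replicate 2 and MYC also without ID2 replicate 1 (up to 0.217 and 0.157). Of 18 receptor tyrosine kinases, 3 were higher and 0 lower (2 and 1, median 0.04). PDGFRA, a receptor amplified in some gliomas and encoded on chromosome 4, was at 2.68 ± 0.458 against 0.956 ± 0.259 CPM (SD, n = 3, log2 fold change 1.48, adjusted p = 0.00252), and AXL had a log2 fold change of 0.30. In the list of ERK feedback and ETV genes, 2 of 15 were higher and 1 lower (1 and 1, median 0.09), with PHLDA1 at 0.47 and ETV1 at -0.37 on the log2 scale. Among 19 AP-1 and immediate early genes, 5 were higher and 1 lower (3 and 2, median 0.25), with MAFF (0.41) higher and JUNB (-0.34) lower. JUNB missed the threshold without ID2 replicate 1 (adjusted p = 0.0632). Of 9 IGF binding protein genes, 2 were higher and 3 lower (1 and 3, median 0.01), among them IGFBP3 at 112 ± 4.2 against 78.5 ± 12.7 CPM and IGFBP6 at 366 ± 12.8 against 501 ± 31.7 CPM (SD, n = 3, log2 fold changes 0.52 and -0.45). Of 17 angiogenic factors, 6 were higher and 3 lower (6 and 2, median 0.03), with the lymphangiogenic VEGFC (0.67) and FGF5 (0.59), both on chromosome 4, and FGF1 (0.54) higher and SEMA3C (-0.29) lower.

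Metabolic lists differed in the direction of the genes that passed, and some went both ways. The called share was below the 18.8% of all tested genes in the ATF4 (16.7%), cholesterol (17.4%) and respiratory chain (14.7%) lists. Of 34 hypoxia targets and glycolysis genes, 1 was higher and 12 lower (1 and 13, median -0.08). GAPDH was at 2679 ± 135 against 3536 ± 537 CPM (SD, n = 3, log2 fold change -0.40) and hexokinase 2, HK2, at 151 ± 2.68 against 199 ± 26.6 CPM (-0.40). The collagen prolyl hydroxylase P4HA2 was at 350.4 ± 18.1 against 509.6 ± 41.2 CPM (-0.54), and it overlaps an antisense gene. Of 18 ATF4 response genes, 3 were higher and 0 lower (4 and 0, median 0.14), namely ATF4 (0.22), the asparagine synthetase ASNS (0.29) and PPP1R15A (0.29). Among 14 serine, glycine and folate enzymes, 4 were higher and 1 lower (5 and 2, median 0.14). PHGDH, the first enzyme of serine synthesis, was at 31 ± 2.86 against 21.7 ± 2.29 CPM and PSAT1, the next one, at 27.6 ± 2.42 against 19.8 ± 1.08 CPM (SD, n = 3, log2 fold changes 0.52 and 0.48). Both groups were below GFP, at 71.2 and 84.6 CPM. PSAT1 lies on chromosome 9, whose tested genes had a median of 0.15. Of 18 amino acid transporters, 6 were higher and 3 lower (5 and 4, median 0.07), with the leucine carrier SLC7A5 at 5.81 ± 1.02 against 2.69 ± 0.459 CPM (SD, n = 3, log2 fold change 1.11) and the cystine carrier SLC7A11 at 18.9 ± 0.684 against 12.9 ± 1.73 CPM (0.55). In the cholesterol list, 3 of 23 were higher and 1 lower (3 and 0, median 0.01), and in the fatty acid list 2 of 17 were higher and 3 lower (2 and 2, median -0.02). The desaturase SCD5 (0.53) was higher, whereas SCD (-0.34) and the regulator SREBF1 (-0.43) were lower. Of 75 nuclear-encoded respiratory chain genes, 2 were higher and 9 lower (4 and 4, median -0.03). Only NDUFB2 (-0.34), NDUFB1 (-0.31), NDUFA8 (0.33) and NDUFA13 (-0.38) were past 0.3 in size among those that passed, and NDUFA13 lost its call without ID2 replicate 3 (adjusted p = 0.0659).

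Among genes of protein synthesis and turnover, those of the unfolded protein response and the lysosome that passed were mostly lower in ID1. Of 77 cytosolic ribosomal proteins, 10 were higher and 4 lower (11 and 0, median 0.01), a share near that of all genes, and their counts are uncertain because of near-identical pseudogenes. Of 19 cytosolic aminoacyl-tRNA synthetases, 3 were higher and 1 lower (3 and 0, median 0.09), led by IARS (0.47, on chromosome 9). Of 21 heat shock genes, 4 were higher and 1 lower (4 and 2, median 0.04), with DNAJA1 (0.46, on chromosome 9) and HSPH1 (0.34) higher. Of 20 unfolded protein response genes of the endoplasmic reticulum, 1 was higher and 9 lower (0 and 9, median -0.19), with CRELD2 at 47.7 ± 1.1 against 69 ± 4.64 CPM (SD, n = 3, log2 fold change -0.53), SEL1L at 131 ± 4.13 against 175 ± 9.04 CPM (-0.41) and the chaperone CALR at 1201 ± 46.4 against 1530.4 ± 54.5 CPM (-0.35, adjusted p = 5.98e-06). Of 28 lysosomal genes, 1 was higher and 10 lower (2 and 8, median -0.14). Cathepsin K, CTSK, a collagen-degrading protease, was at 9.75 ± 0.932 against 22.4 ± 1.12 CPM (SD, n = 3, log2 fold change -1.20, adjusted p = 3.99e-08), and cathepsin S, CTSS, was lower as well (-0.60). Of 31 proteasome genes, 6 were higher and 0 lower (5 and 0, median 0.06), with PSMB7 (0.32) on chromosome 9 and PSMD7 (0.30) among them. Of 23 NRF2 antioxidant genes, 3 were higher and 7 lower (3 and 6, median -0.06), with PGD (-0.58) and AKR1C2 (-0.48) lower and thioredoxin, TXN, higher (0.46, on chromosome 9). Among 6 metallothioneins, 2 were higher and 2 lower (2 and 3, median -0.05), with MT1E (0.29) and MT2A higher and MT1F (-0.57) and MT1M (-0.35) lower. These genes are close copies of each other, so their counts are uncertain.

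**Figure D4:**
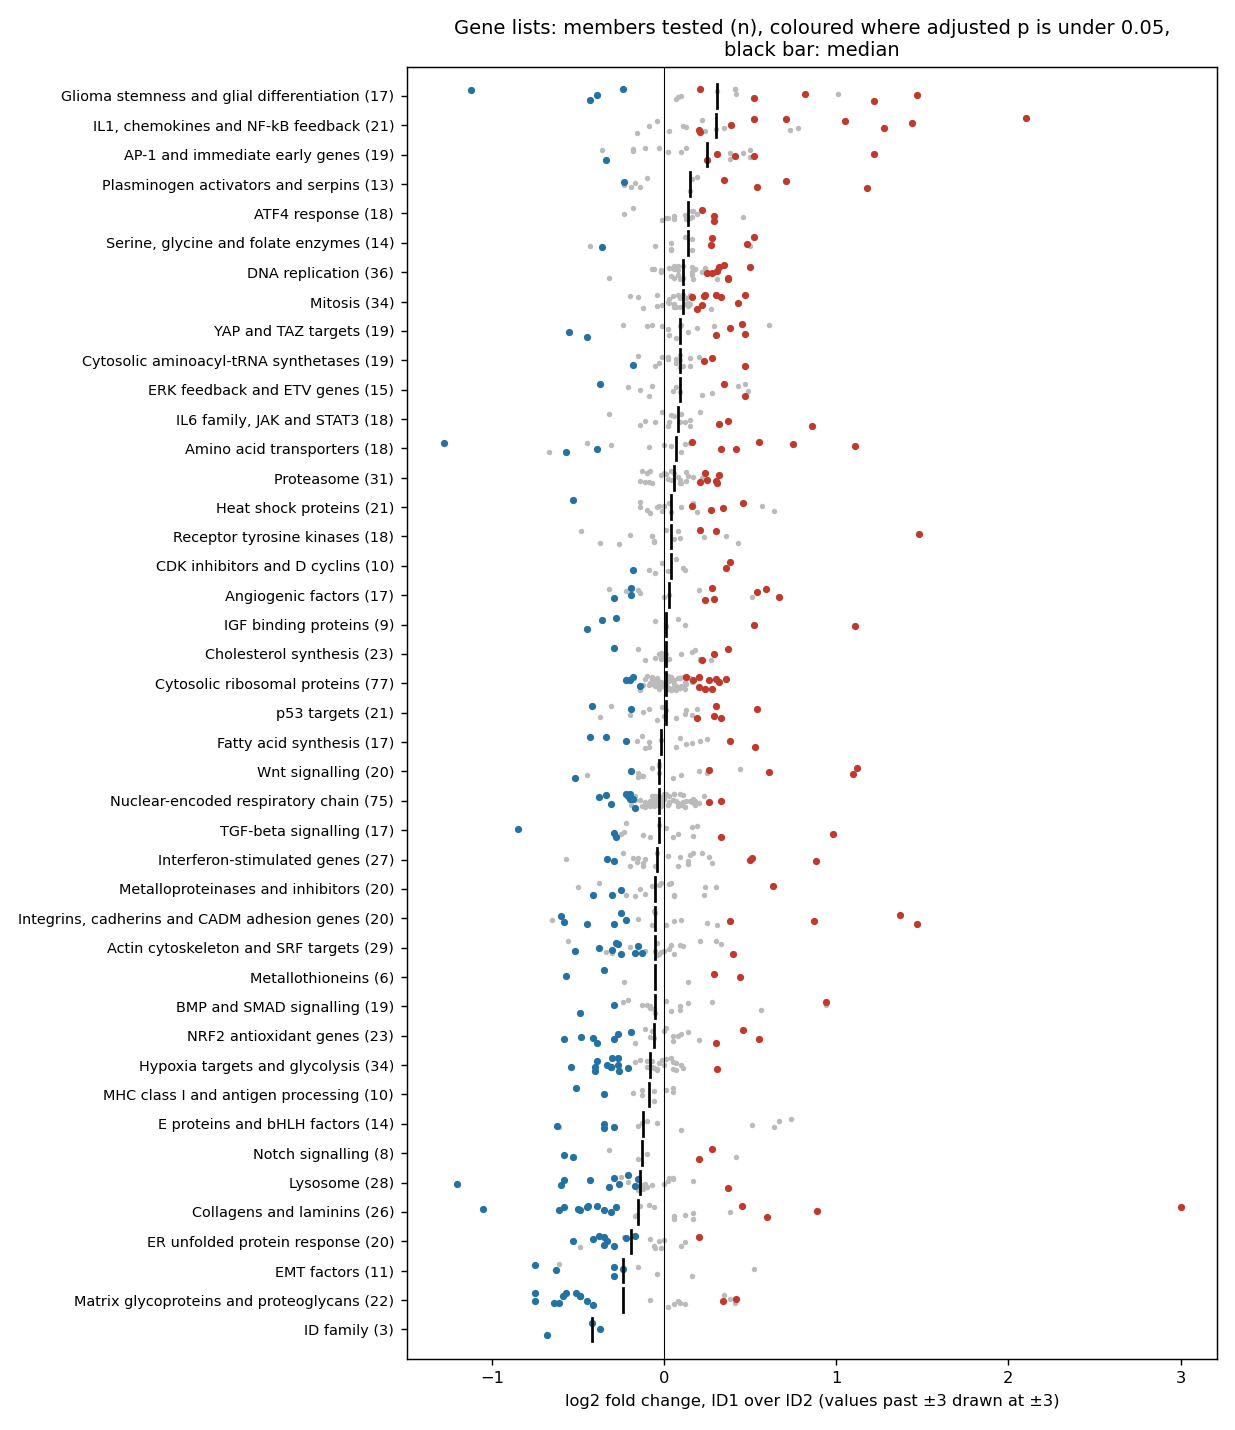
Log2 fold change (ID1 over ID2) of the tested members of the 43 gene lists, coloured where the adjusted p was under 0.05 (red, higher in ID1; blue, lower), with a black bar at the median of each list and lists ordered by median. The ID family, matrix glycoproteins and EMT genes lay lowest and the stemness and chemokine lists highest. Single genes can stand in several lists.

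Genes higher in ID1 were unevenly spread over the chromosomes. On chromosome 4, 120 of 457 tested genes were higher and 14 lower (29.3% called, median log2 fold change 0.18, and 0.15 without ID2 replicate 3). On chromosome 9, 140 of 501 were higher and 18 lower (31.5% called, median 0.15, and 0.16 without that library). Chromosome 8 followed with 75 higher and 25 lower of 439 (median 0.10) and chromosome 15 with 53 and 17 of 412 (median 0.08). The medians of all other chromosomes lay between -0.07 and 0.04. Chromosomes 4 and 9 together held 260 of the genes higher in ID1 and 32 of those lower. The 11393 positioned genes elsewhere gave 879 higher and 1195 lower.

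The shift on chromosome 9 did not cover the whole chromosome. In windows of about 50 genes in genome order, the first 2 windows, up to 35749225 on GRCh37, had medians of -0.03 and 0.02, and the 8 windows from 35791000 on had medians of 0.12 to 0.26. All 9 windows of chromosome 4 were above 0, at 0.09 to 0.26. A stretch of chromosome 12 from 110562140 to 118500235 stood out as well, with a median of 0.23 and 23 genes higher and 0 lower among 51, and a stretch of chromosome 17 from 16344891 to 26941215 had a median of -0.18, with 1 higher and 17 lower among 53. Smaller shifts lay on other chromosomes. Windows of chromosome 16 from 46690044 on, and of chromosome 11 from 47260853 to 65488289, had medians of 0.08 to 0.15. Windows of chromosome X from 23851470 to 77154768 had medians of -0.16 to -0.1. By library, measured as the median deviation of the chromosome's genes from their 15-library mean, the ID2 libraries stood at -0.102, -0.102 and -0.094 on chromosome 9, below the other 12 libraries, which lay between 0.013 and 0.039. On chromosome 4 the ID2 libraries were at -0.078, -0.071 and -0.146 and the ID4 libraries at -0.07 to -0.052, while GFP, ID1 and ID3 libraries lay between 0.023 and 0.092. The ID1 libraries were thus at 0.035 to 0.039 on chromosome 9 and at 0.059 to 0.092 on chromosome 4.

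**Figure D5:**
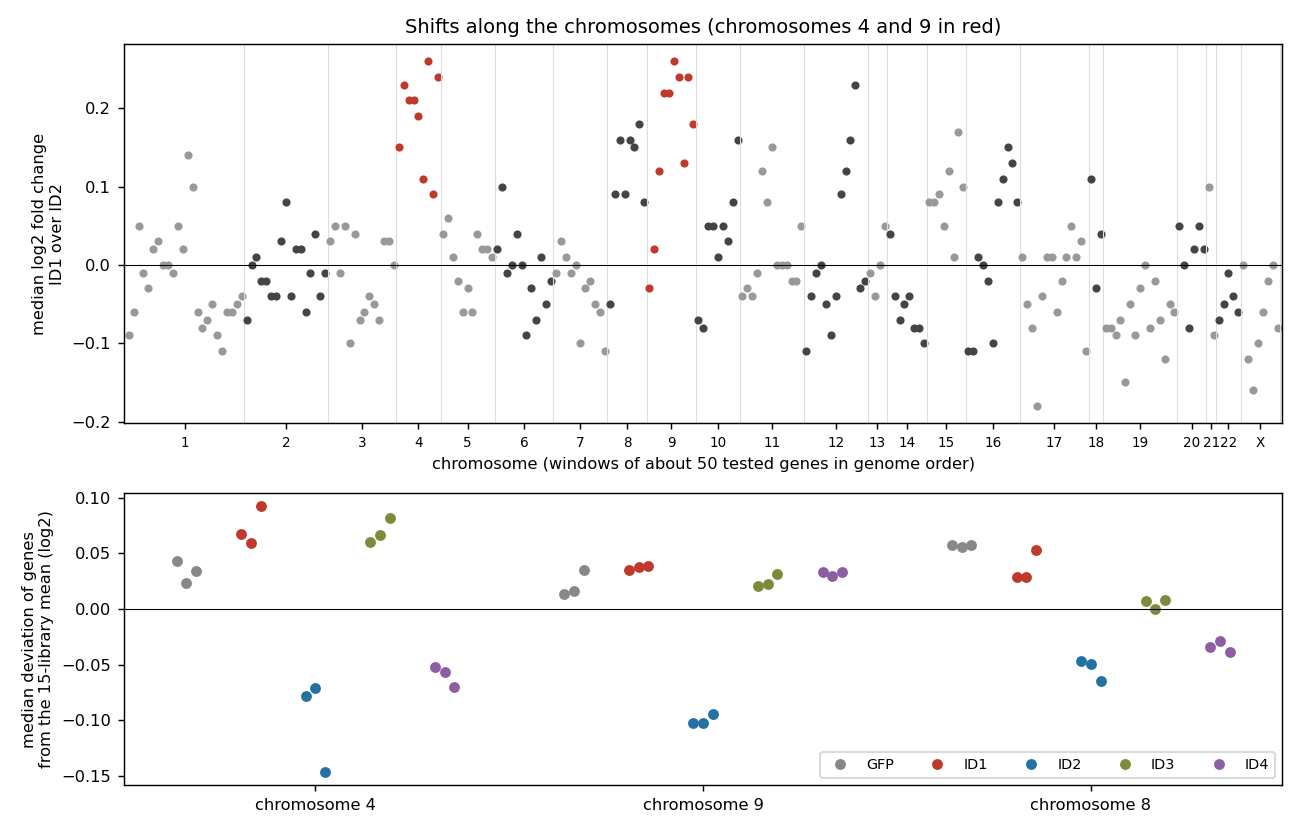
Top, median log2 fold change (ID1 over ID2) in windows of about 50 tested genes in genome order, with chromosomes 4 and 9 in red. Bottom, for chromosomes 4, 9 and 8, the median deviation of the chromosome's genes from their mean over all 15 libraries (log2), 1 point per library. The ID2 libraries lay lowest on chromosome 9, and the ID2 and ID4 libraries lay low on chromosome 4.

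ID2 replicate 3 differed from the mean of the other ID2 libraries over 2-fold in 134 tested genes, against 40 between those 2 libraries. Genes of at least 200 counts with the largest gaps, chosen after their values were seen, included XPOT, a tRNA exporter, at 2.76 CPM against 33.2 and 31.4 CPM, HSPB8, a small heat shock protein, at 5.37 against 38 and 41.8 CPM, and SMN1, the motor neuron survival gene, at 29.1 against 192 and 192 CPM. SMN1 has a near-identical copy, so its counts are uncertain. None of these 3 passed the test between ID1 and ID2, with or without that library (adjusted p = 0.401 to 0.995). Leaving out ID2 replicate 3 ended 583 calls and added 359, and 0 genes were called in opposite directions.

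The genes that part ID1 from ID2 were followed in ID4 against ID3, a contrast that shares no library with it, although all 15 libraries share 1 estimate of the spread. The libraries and direction of this contrast were chosen with earlier results of these data known. Shared directions below are therefore a description and not an independent check. ID4 against ID3 gave 741 genes higher (5.77%) and 706 lower (5.5%) of the same 12833. That total of 1447 rests on few libraries. It was 799 to 928 with any 1 of ID3 replicate 1, ID3 replicate 2 and the ID4 replicates left out, and 1375 without ID3 replicate 3. Of the 1167 genes higher in ID1, 177 (15.2%) were higher in ID4 and 59 (5.06%) were lower, with a median log2 fold change (ID4 over ID3) of 0.059. Of the 1252 genes lower in ID1, 71 (5.67%) were higher in ID4 and 209 (16.7%) lower, with a median of -0.064. Among the 98 genes over 2-fold higher in ID1, 23 (23.5%) were higher in ID4 and 8 (8.16%) lower (median 0.075). Among the 74 genes over 2-fold lower in ID1, 7 (9.46%) were higher in ID4 and 6 (8.11%) lower (median 0.084). Counted from the other side, 23.9% of the 741 and 29.6% of the 706 had the same direction in ID1 against ID2. The median over all tested genes was 0.001. No test was made of these shares.

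Single genes took different courses there. LINC00520 (log2 fold change 2.20 in ID1 over ID2, 2.05 in ID4 over ID3), ITGBL1 (2.09 and 1.36), SP140 (1.78 and 1.75), WISP2 (-1.73 and -1.11) and ID3 (-0.68 and -0.58) passed in the same direction in both. So did ADAM7 (7.37 and 9.79), ALDH1A1 (4.88 and 2.81) and LOC283352 (2.98 and 1.06). For ALDH1A1 the means there were low, at 0.887 CPM in ID4 and 0.118 CPM in ID3. SULF1 (2.04 and -1.39) and KCNK2 (-1.37 and 1.36) passed in opposite directions. RAD50 (-2.99 and 0.22), NMU (3.48 and -0.28) and PODXL (-1.37 and -0.10) passed in ID1 against ID2 alone, and the difference between the 2 comparisons was not tested. Among lists, 7 of 22 matrix glycoproteins were lower in ID4 (median -0.22), while the IL1 and chemokine list had 1 gene higher and 5 lower there (median -0.25), against 9 higher and 0 lower in ID1 over ID2.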

How the data were processed

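The authors deposited 1 table with 2 kinds of values for each gene symbol and library. The first are log2 values, which the authors normalized between libraries. The second are raw read counts, deposited without normalization. The company eBiogen prepared the QuantSeq libraries, and the submitters' processing notes name Bowtie2, BWA and hg19 (GRCh37). The counting tool, its strand setting and the annotation are not given in the sources used here. QuantSeq yields about 1 read per transcript end, so counts do not scale with gene length, but they miss transcripts whose 3′ end is not annotated.

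Counts were fitted with edgeR 4.0.16 in R 4.3.3 (TMM, factors 0.9794 to 1.026, quasi-likelihood test, common dispersion 0.00463), with a mean for each of the 5 groups. The Benjamini-Hochberg adjustment ran over all 12833 tested genes, and an adjusted p under 0.05 was a call. Total counts were 11089044 to 15148979 over the series. Each library took its group from its label, and no library was left out of the reported fit. Alternatives were other filters, normalizations and tests (limma 3.58.1, DESeq2 1.42.0, the 2-fold rule of the methods with an unadjusted p under 0.05), the 6 libraries alone, a replicate block and each library left out. In simulated data, 200 of 12833 genes were changed by 2-fold or more, all with a mean of 50 or more counts. Every gene had the same common dispersion. From these, edgeR recovered 200, with 12 false calls, and the 2-fold rule recovered 144, with 3. Part of the changes lay at the threshold of that rule. Recovery of changes under 2-fold, which most called genes showed, and of genes with fewer counts was not tested.

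Genes named in the text were drawn from sets picked by rule, and not every member of a set is named. The first sets were ID1 to ID4 and the 12 most raised and 12 most lowered called genes. These leading genes were taken from those with a mean of 50 or more counts, no overlap between libraries and a call without ID2 replicate 3. A further set held genes with at most 3 counts per library in 1 group and a mean of at least 20 in the other. The last sets were up to 4 called members per list and the 5 most abundant called genes per direction. Other genes are named as chosen after their values were seen. The libraries, lists and rules were chosen with earlier results of these data known. Gene positions came from GENCODE lifted to GRCh37 (22331 of 25737 entries matched by symbol, 1413 by an older symbol), and 286 symbols occurred more than 1 time. Promoters came from RefSeq. Python 3.11.15 with matplotlib 3.10.9 drew the figures. Some marker genes are not reported here.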

Additional observations from a re-analysis of the deposited data

Results flagged for a closer look

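In 3 of the 24 leading genes, every ID1 library lay above all GFP libraries and every ID2 library below them. These were NMU (log2 fold change, ID1 over ID2, 3.48), LOC283352 (2.98) and CCL2 (2.10). NMU stood at 19.8 to 23.7 CPM in ID1, 5.51 to 6.44 CPM in GFP and 1.27 to 2.43 CPM in ID2. The adjusted p-values given for these genes are for ID1 against ID2, and tests of each group against GFP are not reported here. CCL2 stood at 4.93 to 7.52 CPM in ID1, 2.87 to 3.84 CPM in GFP and 1.26 to 1.48 CPM in ID2, and LOC283352 at 8.47 to 10.1, 2.1 to 3.01 and 0.885 to 1.4 CPM.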

How the results depend on the processing

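The count of 2419 genes stayed between 1720 and 2535 under every alternative but 1. The rule of the methods (over 2-fold and an unadjusted p under 0.05) called 155 genes, since it asks for a fold the other tests do not. Leaving out 1 library at a time gave 1720 to 2246 genes. The same rule left out ID1 (log2 fold change on its values -0.374), ID2 (-0.422) and ID3 (-0.679), which are all under 2-fold. Of the 172 genes over 2-fold, 63 were left when a mean of 50 or more counts was asked for, and 244 were called with no filter. ID4 against ID3 gave 799 to 1375 genes with 1 library left out. Labels number the libraries 1 to 3 in each group, so a fit with that number as a replicate block was made. Deviations of same-numbered ID1 and ID2 libraries correlated at -0.12, 0.04 and -0.12, so the numbers do not pair them, and the block gave 2252 genes (1278 for ID4 against ID3). The fit of the 6 libraries alone, which takes no spread from the other groups, gave 1779 genes. The fit of the 6 libraries alone without ID2 replicate 3, added after seeing the data, gave 2535. Of 192 genes that the naming rules picked and that passed, 153 kept their call and direction in every fit other than the rule of the methods. The other 39 lost their call with 1 library left out, and most of these 39 are not named in the text. No direction reversed. Genes of under 50 counts carried most of the large folds, and their values are the least precise.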
